A study of Mus musculus with 6 samples.

Results

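Trpv6 and 7 other genes of intestinal calcium and magnesium handling were followed in RNA sequenced from sorted mouse gut epithelium, 8 genes of the 46078 in the count table. They were selected by gene name: the calcium channel Trpv6, the calcium buffer S100g, the calcium pump Atp2b1, the vitamin D receptor Vdr with its partner Rxra, the vitamin D-inactivating enzyme Cyp24a1, and the magnesium channels Trpm6 and Trpm7. The set was chosen from results of the comparison of aged with young mice described here, so the values of the 8 genes in that comparison are a description and carry no test. The aged group was 3 untreated C57BL/6JRj mice of 20 to 22 months and the young group 3 untreated mice of the same strain of 2 to 3 months, with 1 library taken as 1 mouse. The cells came from the proximal small intestine, were freed with EDTA and trypsin and were sorted for the epithelial surface protein EpCam and against the leukocyte protein CD45. The labels give no genetic alteration and no sex for either group.

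Calcium crosses the gut wall by separate routes, between the cells through tight junctions and through the enterocyte itself. In the cellular route calcium enters at the brush border through the TRPV6 channel, is carried across the cytosol bound to a small calbindin encoded by S100g, and leaves at the basal side through the plasma membrane calcium pump encoded by Atp2b1; this route is known mainly from the duodenum. The active vitamin D hormone, calcitriol, binds the receptor VDR, which pairs with the retinoid X receptor RXRA on DNA and raises transcription of Trpv6, S100g and Cyp24a1, the last of which degrades the hormone. Magnesium enters epithelial cells through the related channel-kinases TRPM6, studied mostly in kidney and large intestine, and TRPM7, which most cell types make.

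The total count per library was 47841455, 45328055 and 55670388 in the aged mice and 44511852, 58989166 and 41479573 in the young mice. Values are counts, CPM (counts scaled to a common library size with TMM factors) and, wherever levels of different genes are set side by side, TPM (counts scaled by exon length and then to a common total). A count of 0 in a library allows up to 3 counts, which is 0.0507 to 0.0720 CPM over the 6 libraries and covers counting error only. Epcam stood at 1510.4 ± 11.3 CPM in aged and 1656 ± 18.3 CPM in young libraries (SD, n = 3 each). Ptprc, the gene for CD45, stood at 0.230 ± 0.0403 CPM in aged and 0.235 ± 0.0611 CPM in young libraries.

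The stretches of 250 bases before the start sites of Trpv6 and S100g are shown because both genes are textbook targets of the vitamin D receptor and both had their lower mean in the aged mice. They are RefSeq sequences on GRCm38.p6, at chr6:41636406-41636655 and chrX:162964600-162964849, both on the minus strand and written 5′ to 3′ with the start site just after the last base. Capitals mark AGGTCA or its reverse complement TGACCT, the 6-base half-site that nuclear receptors such as VDR and RXRA recognise.
Trpv6: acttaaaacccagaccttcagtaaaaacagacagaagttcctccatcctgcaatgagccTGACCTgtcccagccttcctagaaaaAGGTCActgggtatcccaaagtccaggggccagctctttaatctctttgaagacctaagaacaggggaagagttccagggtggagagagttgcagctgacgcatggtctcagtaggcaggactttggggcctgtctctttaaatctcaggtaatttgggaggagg
S100g: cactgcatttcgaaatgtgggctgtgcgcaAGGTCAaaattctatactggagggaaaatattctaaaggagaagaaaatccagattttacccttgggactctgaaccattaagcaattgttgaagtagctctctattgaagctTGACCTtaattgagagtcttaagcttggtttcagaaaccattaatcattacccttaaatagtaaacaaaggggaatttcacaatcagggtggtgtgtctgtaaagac
Each window held 2 half-sites. Those of Trpv6 began 191 and 165 bases before the start and those of S100g 220 and 107 bases before it. AGGTCA on either strand occurred in 14% of 32851 mouse promoter windows of the same length. The full direct repeat with a spacer of 3 bases that the receptor pair binds, searched on both strands, matched in neither window and in 0.222% of all windows. Of the other letters searched on both strands, GGTTCA occurred in the S100g window, 149 bases before the start, and in 8.85% of all windows. TATAAA (12.4% of windows), GGGCGG (32.7%), CACGTG (6.02%) and TTTATG (10.8%) were in neither. The GC content was 49.6% for Trpv6 and 38.4% for S100g, against a median of 52.4% over all windows. A match is only a match of letters, and a missing one says only that these letters are not in this window. Windows were found for 7 of the 8 genes, all but Cyp24a1. Beyond Trpv6 and S100g, a window of Rxra also held 2 half-sites, 87 and 48 bases before its start. Another Rxra window and those of Atp2b1, Vdr, Trpm6 and Trpm7 held no half-site.

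Trpv6 (ENSMUSG00000029868, chromosome 6, 41620624 to 41636405 on GRCm38, minus strand), the channel through which calcium enters the enterocyte, had no read in any aged library. Its counts were 0, 0 and 0 in the aged mice, against 93, 74 and 85 in the young mice. The groups thus did not overlap. The young libraries held 2.12, 1.25 and 2.04 CPM, a mean of 1.80 ± 0.479 (SD, n = 3), and young replicate 2 was the lowest of them although it was the deepest library. Over the group, 0 of 148839898 counts in the aged libraries and 252 counts in the young libraries fell on the gene. Taking the floor of 3 counts in each aged library, a mean of 0.0609 CPM, Trpv6 was at least 29.6-fold lower in the aged mice. No gene of the GENCODE M21 annotation overlaps Trpv6. In bulk RNA, fewer cells of a type and less RNA per cell cannot be told apart.

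S100g (ENSMUSG00000040808, chromosome X, 162961992 to 162964599, minus strand), the cytosolic calcium carrier, had 2597, 1488 and 1305 counts in aged and 3598, 2862 and 2317 counts in young libraries. This was 54.9, 32.6 and 23.3 CPM in the aged mice, a mean of 36.9 ± 16.2, against 81.9, 48.4 and 55.6 CPM in the young mice, a mean of 62.0 ± 17.6 (SD, n = 3 each). Aged replicate 1 lay above young replicate 2, so the groups overlapped. The log2 fold change was -0.75 ± 0.35 (SE) and S100g was not called. Leaving out aged replicate 1 gave -1.15, and leaving out young replicate 1 gave -0.50. Within the aged group the highest library stood 2.36 times above the lowest, and within the young group 1.69 times. The span of Ctps2, on the opposite strand, overlaps that of S100g, and whether their exons overlap was not checked. In shared exons, reads could be told apart only if the counting used strand, which is not given in the sources used here.

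Atp2b1 (ENSMUSG00000019943, chromosome 10, 98914406 to 99026143), the pump that moves calcium out at the basal side, had nearly the same level at both ages. It stood at 111, 104 and 119 CPM in aged and 119, 116 and 97.4 CPM in young libraries, and the values interleaved. Its means were 111 ± 7.24 CPM in aged and 111 ± 11.9 CPM in young libraries (SD, n = 3 each), with a log2 fold change of 0.0053 ± 0.09 (SE). The 3 steps of the cellular route thus had 3 different records in the same libraries: an entry channel without a read in the aged mice, a carrier with a lower mean and overlapping groups, and an exit pump whose means differed by less than the spread between mice.

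**Figure D1:**
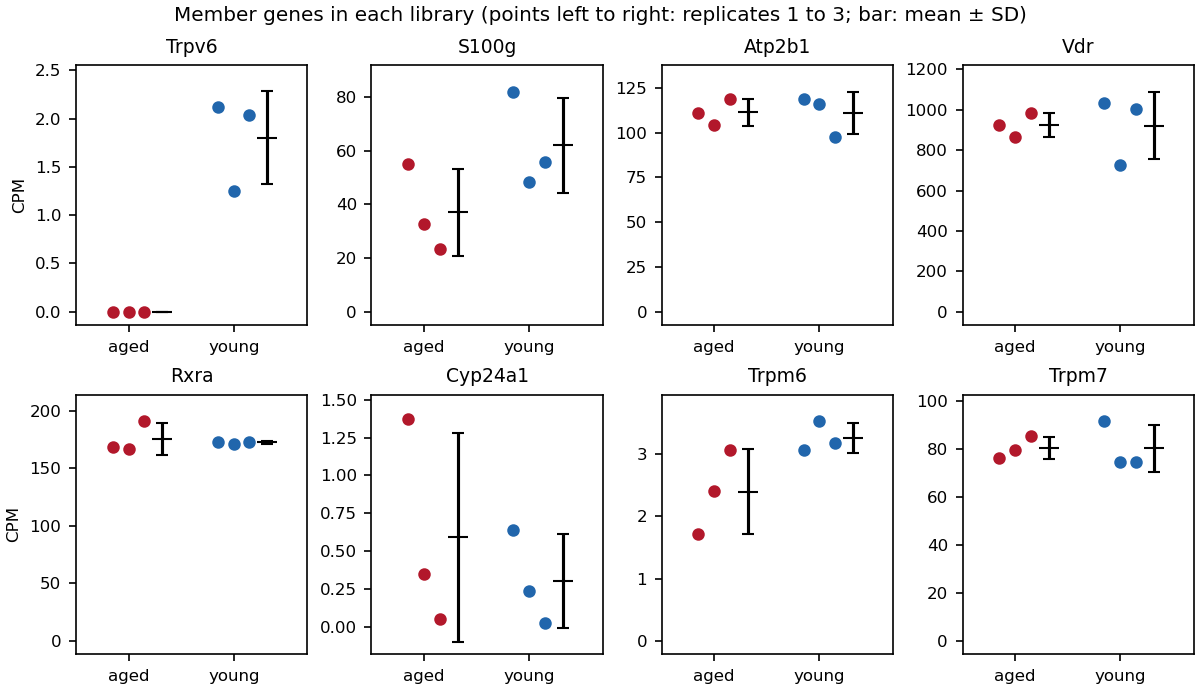
Level of the 8 genes in each library, in CPM on a linear axis of its own for each gene, with aged libraries left and young libraries right; points are libraries (replicates 1 to 3 from left to right) and bars are the mean ± SD of 3. The 3 aged points of Trpv6 lie at 0 and the young ones at 1.25 to 2.12 CPM, while the groups of Atp2b1, Vdr, Rxra and Trpm7 interleave.

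Vdr (ENSMUSG00000022479, chromosome 15, 97854425 to 97910630), the receptor itself, was the most abundant of the 8 genes. It stood at 924, 867 and 982 CPM in aged libraries, a mean of 924 ± 57.6, and at 1034, 729 and 1002 CPM in young libraries, a mean of 922 ± 168 (SD, n = 3 each). The 3 aged values all lay inside the range of the young ones. The log2 fold change was 0.0041 ± 0.13 (SE). Young replicate 2, the lowest for Vdr, was also the lowest young library for Trpv6 and for S100g.

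Rxra (ENSMUSG00000015846, chromosome 2, 27676440 to 27762957), the DNA-binding partner of VDR, stood at 168, 167 and 191 CPM in aged libraries, a mean of 175 ± 13.6, and at 173, 171 and 173 CPM in young libraries, a mean of 172 ± 1.26 (SD, n = 3 each). The groups overlapped, with a log2 fold change of 0.02 ± 0.07 (SE). Per length, the ratio of Rxra to Vdr in TPM was 0.188, 0.199 and 0.201 in aged and 0.173, 0.243 and 0.179 in young libraries.

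Cyp24a1 (ENSMUSG00000038567, chromosome 2, 170482708 to 170497145), which degrades calcitriol and is strongly induced by it, differed more between mice of 1 group than between the groups. Its counts were 65, 16 and 3 in aged and 28, 14 and 1 in young libraries. In CPM these were 1.37, 0.351 and 0.0535 in the aged mice and 0.637, 0.237 and 0.0240 in the young mice. The highest library stood 25.7 times above the lowest in the aged and 26.5 times in the young group. The log2 fold change of 0.96 ± 1.13 (SE) turned to -0.62 without aged replicate 1 and reached 2.02 without young replicate 1, so the direction rested on 1 library. Aged replicate 3 and young replicate 3 lay at or under the floor of 3 counts. The span of Pfdn4, on the opposite strand with 4180 counts over the 6 libraries, overlaps that of Cyp24a1. Whether their exons overlap was not checked and the strand setting is not given. A part of Pfdn4 in these few reads was not tested.

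Trpm6 (ENSMUSG00000024727, chromosome 19, 18749983 to 18892511), the magnesium channel of absorbing epithelia, was a low-level gene here, with 81, 110 and 172 counts in aged and 135, 209 and 132 counts in young libraries. It stood at 1.71, 2.41 and 3.07 CPM in the aged mice, a mean of 2.40 ± 0.677, against 3.07, 3.53 and 3.17 CPM in the young mice, a mean of 3.26 ± 0.244 (SD, n = 3 each). The highest aged library lay below the lowest young one by less than the digits given. The log2 fold change was -0.44 ± 0.23 (SE), with -0.25 without aged replicate 1 and -0.67 without aged replicate 3. In TPM the same libraries read 0.683, 1.0 and 1.32 in the aged and 1.19, 1.46 and 1.23 in the young mice, and there the groups overlapped.

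Trpm7 (ENSMUSG00000027365, chromosome 2, 126791565 to 126876230), the widely made relative of Trpm6, stood at 76.5, 79.7 and 85.3 CPM in aged libraries, a mean of 80.5 ± 4.43, and at 91.8, 74.6 and 74.7 CPM in young libraries, a mean of 80.4 ± 9.90 (SD, n = 3 each). The aged values lay within the young range, and the log2 fold change was 0.0029 ± 0.10 (SE). In TPM, Trpm7 exceeded Trpm6 by 30.5, 22.5 and 19.0 times in aged and by 20.4, 14.4 and 16.1 times in young libraries.

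All 8 genes passed the filter on low counts. At the threshold of the edgeR quasi-likelihood test over all genes, Trpv6 was called lower in the aged mice, none of the 8 was called higher and 7 were not called. Over all 14923 genes tested, 117 (0.784%) were called lower and 93 (0.623%) higher. Trpv6 and Trpm6 had every aged library below every young one and no member had the reverse. Among all tested genes 7.49% had every aged library below every young one and 6.30% had every aged library above. Since the genes were chosen from this contrast, nothing is read from these counts.

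Set side by side per length, the genes covered levels from Vdr, at 525 ± 46.2 TPM in aged and 495 ± 73.6 TPM in young libraries, down to Cyp24a1, at 0.518 ± 0.595 TPM in aged and 0.255 ± 0.259 TPM in young libraries (SD, n = 3 each). In the aged mice Vdr was followed by S100g (244 ± 98.0 TPM), Rxra (103 ± 11.5), Atp2b1 (23.5 ± 2.16), Trpm7 (22.8 ± 2.12), Trpm6 (1.0 ± 0.319), Cyp24a1 and, with no read, Trpv6. In the young mice it was followed by S100g (392 ± 102 TPM), Rxra (96.2 ± 3.01), Atp2b1 (22.3 ± 2.78), Trpm7 (21.6 ± 2.30), Trpv6 (1.39 ± 0.326), Trpm6 (1.29 ± 0.147) and Cyp24a1. In TPM, Atp2b1 and Trpm7 overlapped in both groups. The overlaps given here were not compared with longest-transcript lengths. Trpm6 and Cyp24a1 overlapped in the aged mice alone, and Vdr with S100g and Trpv6 with Trpm6 in the young mice alone. Even in the young mice, then, the entry channel was the scarcest mRNA of the cellular calcium route, at a level like that of Trpm6. The ratio of S100g to Vdr in TPM was 0.699, 0.443 and 0.279 in aged and 0.932, 0.782 and 0.653 in young libraries, with aged replicate 1 inside the young range.

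**Figure D2:**
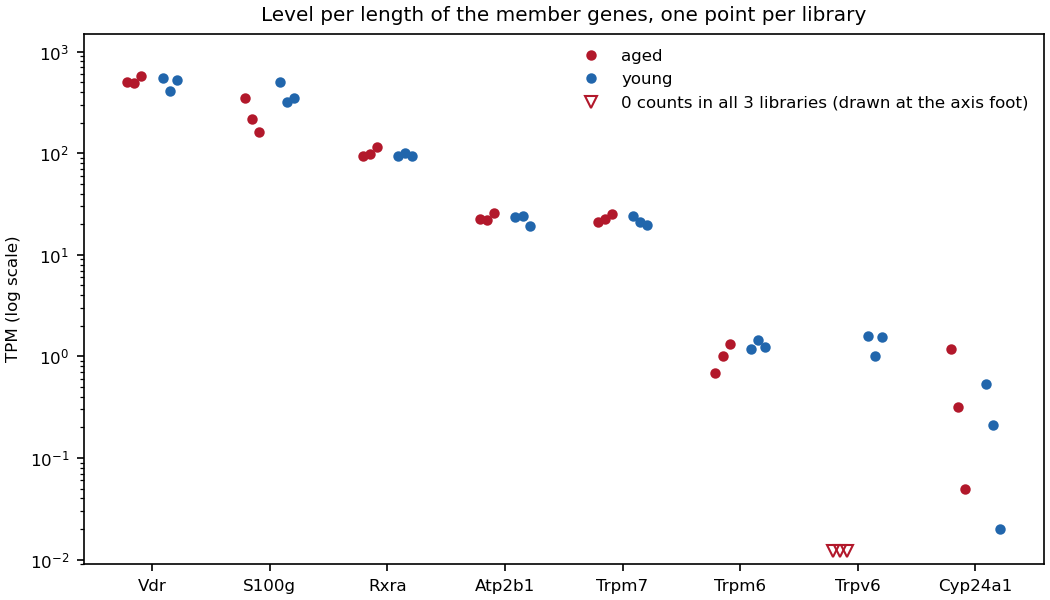
Level per length of the 8 genes in TPM on a log axis, from the highest to the lowest mean, with aged points left and young points right for each gene and 1 point per library. Open triangles at the foot of the axis mark the 3 aged libraries with 0 counts of Trpv6; the young points of Trpv6 (1.01 to 1.6 TPM) lie among those of Trpm6.

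Trpv6 stood apart from the other genes of the table by its counts of 0. Of all 46078 genes it was the only one with 0 in every aged library and at least 20 counts in every young one, and it also met a minimum of 50. With a minimum of 10 counts a further gene, the long noncoding RNA Rian, joined it (0, 0 and 0 in aged and 11, 24 and 10 counts in young libraries), and with a minimum of 3 counts there were 10 such genes. In the reverse direction, 0 in every young library, 3 genes met the minimum of 3 counts and none that of 10. Rian was named after its values were seen.

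The chromosomal neighbours of Trpv6 were examined for the same pattern. Within 100 kb lie 5 other protein-coding genes. Ephb6 (ENSMUSG00000029869, chromosome 6, 41605482 to 41620509, plus strand), which encodes an Eph receptor without kinase activity, ends 114 bases from the end of Trpv6, the 2 genes pointing at each other. Its counts were 6, 1 and 2 in aged and 31, 57 and 67 in young libraries. The groups did not overlap, at 0.0614 ± 0.0570 CPM in aged and 1.09 ± 0.465 CPM in young libraries (SD, n = 3 each), a log2 fold change of -4.11 ± 0.57 (SE, edgeR adjusted p = 0.0101). The call was lost without aged replicate 2 (adjusted p = 0.0545). On the other side Trpv5, the close relative of Trpv6 that carries calcium in the kidney, lies 15767 bases away and had 0 counts in all 6 libraries. Prss2 and 1700034O15Rik were also at 0 throughout, and Kel had 1 count in 1 young library. Ephb6 was singled out after its values were seen, and reads that run past the end of either gene into the other were not tested.

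**Figure D3:**
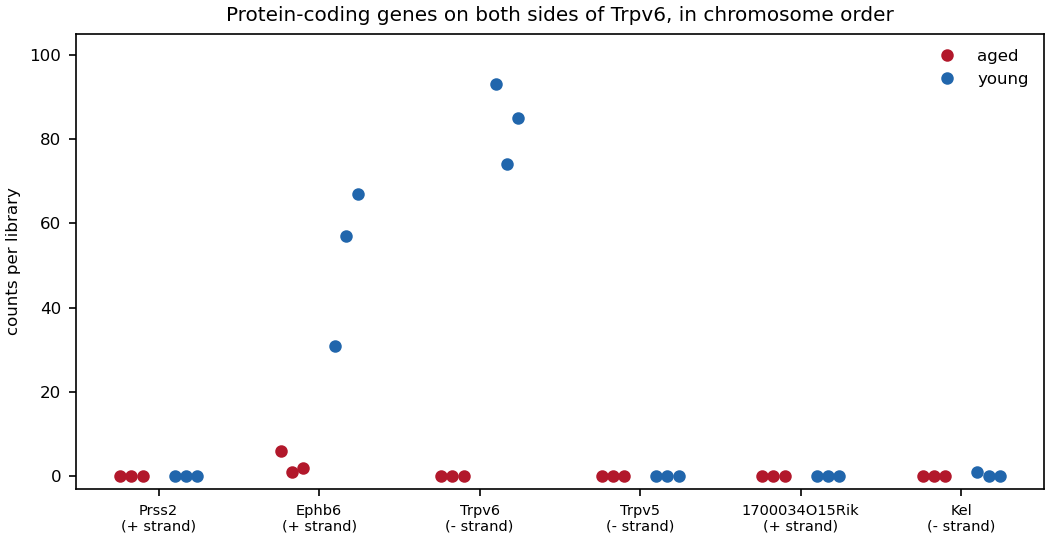
Counts per library (vertical axis) of Trpv6 and of the 5 other protein-coding genes within 100 kb, in chromosome order along the horizontal axis with the strand of each, aged points left and young points right. Trpv6 and the adjacent Ephb6 hold counts in the young mice, 74 to 93 and 31 to 67, with 0 and at most 6 in the aged mice, and the other genes lie at 0 or 1.

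The other genes of calcium, magnesium and phosphate transport and of vitamin D action were taken from 7 lists of 112 genes, of which 111 were in the table and 90 were tested. By edgeR's quasi-likelihood test none was called higher or lower in the aged mice, with 5 at an unadjusted p below 0.05, all lower. These 5 were 5.56% of the 90 genes, where 1377 of all tested genes (9.23%) were below that p in either direction and 5.33% were below it and lower. Limma-voom called none and DESeq2 called 2 lower, Itpr2 and Slc37a2. The median log2 fold change over the 90 genes was -0.02, beside 0.0065 over all tested genes. Of these genes 81.1% lay within 0.25 of 0 on the log2 scale, beside 77.1% of all tested genes. The groups did not overlap in 7 of the 90 genes with lower and 1 with higher aged values. Over all tested genes 7.49% had every aged library below every young one and 6.30% had every aged library above, and nothing is read from the 7.

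Of the other genes of calcium entry, storage and extrusion, 22 of 30 were tested and none passed the test, with a median log2 fold change of -0.02. Calm3, which encodes a calcium sensor, stood at 616 ± 25.3 CPM in aged and 603 ± 5.0 CPM in young libraries (edgeR adjusted p = 0.960). Trpv5 and Calb1, the kidney's counterparts of Trpv6 and S100g, had 0 counts in all 6 libraries. Itpr2, a calcium release channel of the endoplasmic reticulum, had the lowest adjusted p of the list. It stood at 8.22, 9.23 and 9.13 CPM in the aged mice and 14.7, 13.2 and 11.5 CPM in the young mice, a log2 fold change of -0.57 ± 0.13 (SE, edgeR adjusted p = 0.0767). The groups did not overlap, and DESeq2 called it (adjusted p = 0.00264).

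Of 14 partners and regulators of the TRPV6 protein 10 were tested, none passed, and the log2 fold changes ran from -0.18 to 0.11. Tmprss2, a surface protease, stood at 661 ± 17.8 CPM in aged and 707 ± 57.5 CPM in young libraries (adjusted p = 0.828), and the ubiquitin ligase Nedd4 at 542 ± 53.6 CPM in aged and 561 ± 38.6 CPM in young libraries (adjusted p = 0.938; edgeR). S100a10, which with annexin brings TRPV6 to the cell surface, stood at 158, 152 and 154 CPM in aged and 176, 179.7 and 168 CPM in young libraries. These groups did not overlap, yet edgeR did not call the difference (log2 fold change -0.17 ± 0.06 SE, adjusted p = 0.382). Klotho (Kl), described in kidney as a stabiliser of TRPV5 at the membrane, was under the filter with 2, 3 and 1 counts in aged and 8, 10 and 10 in young libraries, and was not tested. Itpr2, S100a10 and Kl were named after their values were seen.

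The route between the cells was represented by 7 claudins, of which 4 were tested and none passed. Cldn7 stood at 862 ± 27.1 CPM in aged and 869 ± 53.5 CPM in young libraries (edgeR adjusted p = 0.985). The pore-forming Cldn15 stood at 559 ± 29.1 CPM in aged and 625 ± 46.5 CPM in young libraries without overlap, a log2 fold change of -0.16 (edgeR adjusted p = 0.635). Cldn2, which forms a pore for cations, stood at 328 ± 17.9 CPM in aged and 379 ± 48.1 CPM in young libraries (edgeR adjusted p = 0.595). Cldn19 and Cldn10 had no counts, and Cldn16, known from the kidney's magnesium route, had 1 count in all.

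Of 24 further genes of magnesium transport 23 were tested, none passed and the log2 fold changes ran from -0.59 to 0.26. Cnnm4, a basolateral magnesium exporter of the gut, stood at 219 ± 19.3 CPM in aged and 205 ± 16.6 CPM in young libraries (edgeR adjusted p = 0.863). Ptp4a2, a phosphatase that binds the CNNM proteins, stood at 225 ± 7.21 CPM in aged and 235 ± 7.28 CPM in young libraries (edgeR adjusted p = 0.878). Of 7 phosphate genes 6 were tested and none passed, Slc20a1 standing at 72.0 ± 12.4 CPM in aged and 74.4 ± 3.76 CPM in young libraries and the proton exchanger gene Slc9a3 at 58.2 ± 10.9 CPM in aged and 53.4 ± 8.07 CPM in young libraries.

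The genes of vitamin D activation and of the receptor's cofactors had 15 of 18 members tested and a median log2 fold change of 0.07, with 13 above 0 and 2 below, and none passed the test. Pdia3 stood at 798 ± 87.5 CPM in aged and 749.6 ± 95.4 CPM in young libraries (adjusted p = 0.894), and the corepressor Ncor1 at 367 ± 21 CPM in aged and 362 ± 24.1 CPM in young libraries (adjusted p = 0.978; edgeR). The lowest log2 fold change of the list, -2.36, was that of Cubn, an uptake receptor also held in the list of ileal markers. Its groups overlapped, at 0.824, 0.329 and 1.51 CPM in aged and 7.23, 5.17 and 1.46 CPM in young libraries (edgeR adjusted p = 0.237).

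The genes described as vitamin D responsive in the intestine had the lowest median of the 7 lists, -0.34 on the log2 scale. Of 13 tested among 15, 12 lay below 0 and 1 above, and none passed the test. Over all tested genes 51.8% lay above 0. Slc37a2, a sugar phosphate exchanger, stood at 7.75, 5.42 and 7.65 CPM in aged and 14.4, 9.15 and 12.7 CPM in young libraries, without overlap. Its log2 fold change was -0.79 ± 0.20 (SE, edgeR adjusted p = 0.122); DESeq2 called it (adjusted p = 0.00591), and so did edgeR without young replicate 2 (adjusted p = 0.0374). Cyp3a11, which oxidises drugs and steroids, stood at 18 ± 11.3 CPM in aged and 38.2 ± 22.7 CPM in young libraries, with overlap (log2 fold change -1.08 ± 0.59 SE, edgeR adjusted p = 0.717). The transporter Abcc3 stood at 217 ± 46.8 CPM in aged and 222 ± 45.4 CPM in young libraries (edgeR adjusted p = 0.986). Cubn, Slc37a2 and Cyp3a11 were named after their values were seen. Several genes of this list belong to absorptive enterocytes, whose 10 markers had a median log2 fold change of -0.23 with none called, and a summed level of 4114 to 6046 CPM in aged and 5446 to 7023 CPM in young libraries. The part of that shift in the list's median was not tested.

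**Figure D4:**
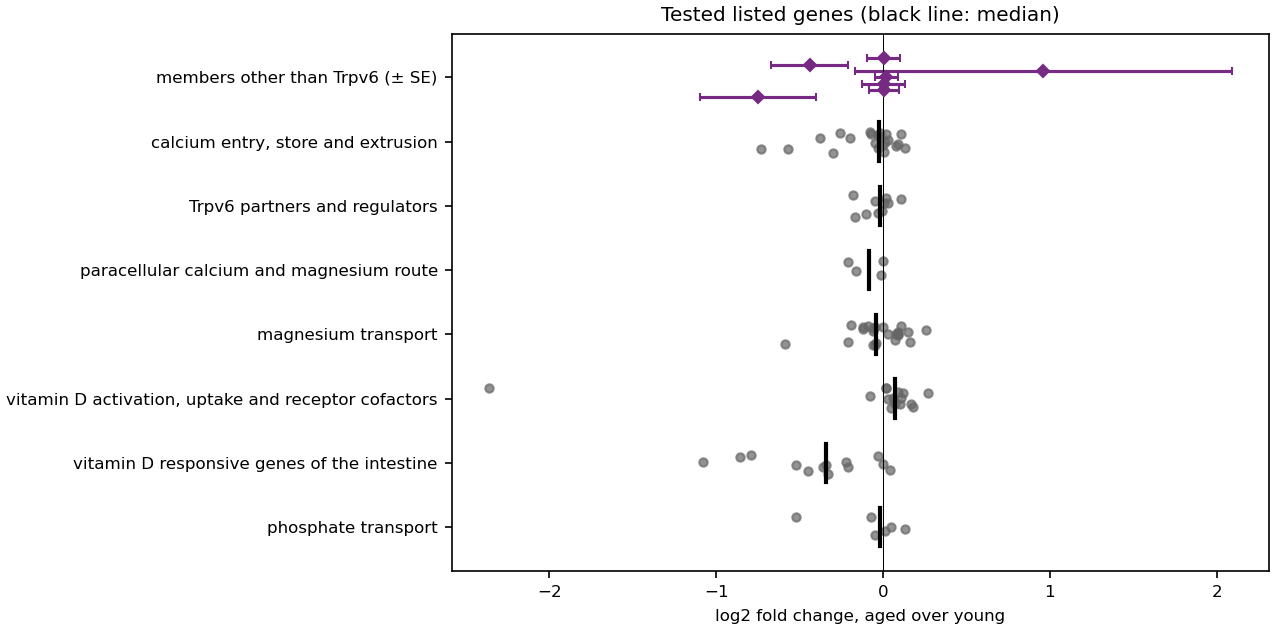
Log2 fold change, aged over young, of the tested genes of each of the 7 lists (grey points, black line for the list's median, a gene of 2 lists shown in both) below the 7 members other than Trpv6 (diamonds with ± SE), with list names on the vertical axis. Most points lie near 0, the vitamin D responsive list has its median at -0.34, and the widest error is that of Cyp24a1.

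Markers of gut position and of other cell types were set beside Trpv6 and S100g, whose textbook place is the duodenum. Of 9 tested duodenal markers 1 was called lower and none higher by edgeR, with a median log2 fold change of 0.03. Of these 5 lay above 0 and 4 below. Every aged library lay below every young one in 3 of them, Gip and Cybrd1 among these, and above in none. Over all tested genes these shares were 7.49% and 6.30%. DESeq2 called 2 of the 9 duodenal markers. Their summed level was 1133 to 1428 CPM in aged and 1251 to 1479.8 CPM in young libraries. The marker called by edgeR was Gip, a hormone gene of proximal endocrine cells, at 176 ± 15.3 CPM in aged and 243 ± 9.73 CPM in young libraries (edgeR adjusted p = 0.0285). That call was lost without aged replicate 1, aged replicate 2, young replicate 1 or young replicate 3 (highest adjusted p 0.125). Pdx1, a regulator of duodenal identity, stood at 53.1 ± 9.56 CPM in aged and 44.4 ± 5.02 CPM in young libraries (adjusted p = 0.666), and the iron reductase gene Cybrd1 at 1.82 ± 0.252 CPM in aged and 3.59 ± 0.502 CPM in young libraries (adjusted p = 0.0581; edgeR), both picked after their values were seen. Fabp1, the most abundant duodenal marker, stood at 368 ± 133 CPM in aged and 355 ± 77.5 CPM in young libraries (edgeR adjusted p = 0.985). Of 9 tested ileal markers none was called, with a median of -0.03 and a sum of 97.4 to 126 CPM in aged and 122 to 147 CPM in young libraries. Their most abundant one was Slc51a, at 51.9 ± 14.7 CPM in aged and 65.6 ± 11.4 CPM in young libraries (edgeR adjusted p = 0.774). The part of gut position in the absence of Trpv6 reads was not tested.

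Crypt markers had a median log2 fold change of -0.04 with none of 8 called, and sums of 5872 to 6708 CPM in aged and 5886 to 7042 CPM in young libraries. Goblet (median -0.46), Paneth (-0.68) and enteroendocrine (-0.07) markers each had 1 gene of 7 called lower by edgeR, Tff3, Defa17 and Sst. Tuft markers had none of 5 (median -0.30). DESeq2 called 2 goblet, 4 Paneth, 2 enteroendocrine and 0 tuft markers, and limma-voom 0, 1, 1 and 0. All 7 goblet, all 7 Paneth, 4 of 7 enteroendocrine and all 5 tuft markers lay below 0. Every aged library lay below every young one in 4, 4, 2 and 2 of them, beside 7.49% of all tested genes. The edgeR call of Tff3 was lost without any 1 library except young replicate 1 (highest adjusted p 0.171), that of Defa17 without young replicate 1 or any 1 aged library (0.142), and that of Sst without any 1 library except aged replicate 3 (0.174). The summed goblet level was 14987 to 16620.2 CPM in aged and 17721 to 26969.7 CPM in young libraries, and the Paneth level 6381 to 6850.0 CPM in aged and 8445 to 15616 CPM in young libraries. Among leukocyte markers 5 of 10 were tested, 3 above 0 and 2 below, with a median log2 fold change of 0.52. Of these Itgam was called higher, at 21.6 ± 1.18 CPM in aged and 12.6 ± 0.681 CPM in young libraries (edgeR adjusted p = 0.00726). The list's sum, 24.2 to 26.6 CPM in aged and 15.7 to 17.8 CPM in young libraries, was mostly Itgam. Lyz2, another marker of the list, went the other way, with 2.07 ± 0.116 CPM in aged and 2.99 ± 0.919 CPM in young libraries and no overlap (edgeR adjusted p = 0.567; named after its values were seen), and Ptprc had overlapping groups. Stromal markers summed to 1.34 to 1.61 CPM in aged and 1.01 to 1.87 CPM in young libraries, with Cdh5 at 0 throughout. Of the 10 stromal markers 1 was tested, which made up most of each sum and was not called. Of 8 pancreatic markers 6 were at 0 throughout, and the sum of 9.63 to 11.4 CPM in aged and 4.87 to 7.49 CPM in young libraries was nearly all Cela1, at 10.8 ± 1.01 CPM in aged and 6.21 ± 1.30 CPM in young libraries (edgeR adjusted p = 0.0643, DESeq2 adjusted p = 0.000810). Gastric and Brunner gland markers summed to 42.7 to 82.9 CPM in aged and 51.7 to 84.6 CPM in young libraries. These sums joined opposite movements. Of 8 such markers 3 were tested, 2 above 0 and 1 below, from -0.71 to 0.66 on the log2 scale, and none was called. The part of these shifts in the values of Trpv6 and the other members was not tested.

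The genes whose pattern over the 6 libraries was most like that of Trpv6 were ranked by Pearson's r of log2(CPM + 0.5). The ranking took the 10012 tested genes that averaged 5 CPM or more, without symbols of Gm or Rik form. They were Epcam (r = 0.995), the ribosomal protein pseudogene Rps4l (0.987), Arhgap4 (0.986), Shisa2 (0.986) and Hsd17b2 (0.981), and 45 genes had an r above 0.95. Within a library all genes share 1 scaling factor. With 0 in all aged libraries, the likeness rests mainly on the gap between the groups. The order of the 3 young libraries was that of Trpv6 in Shisa2 and Hsd17b2, but not in Epcam, Rps4l or Arhgap4. Epcam was not called, with a log2 fold change of -0.13 ± 0.07 (SE, edgeR adjusted p = 0.653), and the other 4 were called lower in the aged mice. The ranking itself favours genes that differ between the groups, so these calls are a description. The calls of Shisa2 (without aged replicate 1 or 2 or young replicate 1 or 3, highest adjusted p 0.115 in edgeR) and Hsd17b2 (without aged replicate 1 or 2 or young replicate 1, 0.0749) were lost when 1 library was left out. Rps4l stood at 4.98 ± 0.294 CPM in aged and 74.2 ± 4.37 CPM in young libraries, and Hsd17b2, an enzyme that inactivates sex steroids, at 14.0 ± 1.35 CPM in aged and 24.9 ± 2.78 CPM in young libraries.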

How the data were processed

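RNA from sorted epithelial cells of 3 aged and 3 young mice was measured. Libraries were made with a stranded poly(A) kit, per the labels' protocols. The authors deposited raw counts per gene, whole numbers with unequal totals, in 1 table of 46078 genes. The submitters' processing notes name GRCm38, STAR, HISAT2 2.1.0, featureCounts 1.6.4, Trim Galore 0.6.4, cutadapt 2.5, SAMtools 1.9, StringTie 2.0 and DESeq2 1.28.1 among their tools, without role or order. Neither the annotation nor the strand setting of the counting is given in the sources used here. Positions and exon lengths for TPM are from GENCODE M21, where 45229 IDs matched and 849, with 0.0559% of counts, did not. Totals ran from 41479573 to 58989166 counts.

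Groups come from the age label. Replicate numbers follow record order, and no pairing or batch is given. The design names 3 mice per age, and libraries of a group differed beyond sampling noise (chi-square per gene 27.0 to 69.7). Genes passing filterByExpr (minimum count 10) in edgeR 4.0.16 (R 4.3.3) were scaled by TMM and tested with the robust quasi-likelihood test over all 6 libraries, with Benjamini-Hochberg adjustment over 14923 genes and a threshold of 0.05. The SE is the log2 fold change over the root of its F statistic. Alternatives were other scaling, other filters, DESeq2 1.42.0, limma-voom (limma 3.58.1), non-robust estimation, longest-transcript lengths and leaving out each library.

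Members, lists and rules were chosen with earlier results of these data known. The rule for naming genes beside the members took up to 4 called genes of a pathway list, or its 2 most abundant tested genes where none was called, up to 3 called genes of a marker list and its most abundant one, Epcam, Ptprc and the 5 genes most like Trpv6; others are marked as named after their values were seen. A gene that this rule took is not reported here. The organoid, single-cell and chromatin data were not analysed here.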

Additional observations from a re-analysis of the deposited data

How the results depend on the processing

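The values of the 8 members moved by less than the spread between replicates under 7 other scalings, filters and tests and with each library left out, except that Cyp24a1 was removed by the filter of 1 CPM in 3 libraries and has no value there. For Trpv6 the value was the bound from the floor, made from counts and library scaling alone. The choice of test thus entered that bound only through the scaling. Whether Trpv6 was called under each setting is not given. The order per length over both groups together was the same with longest-transcript lengths. The orders within each group, and the overlaps between neighbours, were not compared in this way. Leaving out 1 library gave a log2 bound of -5.10 to -4.76 for Trpv6 and log2 fold changes of -1.15 to -0.50 for S100g, -0.08 to 0.06 for Atp2b1, -0.15 to 0.09 for Vdr, -0.05 to 0.05 for Rxra, -0.62 to 2.02 for Cyp24a1, -0.67 to -0.25 for Trpm6 and -0.05 to 0.11 for Trpm7. The number of genes called higher, 93 in all, was 168 without a filter and 206 with DESeq2. The number called lower, 117 in all, was 245 without a filter, 67 with at least 1 CPM in 3 libraries and 276 with DESeq2. The cause was not tested. With 1 library left out, 35 (without aged replicate 2) to 135 (without aged replicate 3) genes were called higher and 30 (without aged replicate 1) to 135 (without aged replicate 3) lower. Without aged replicate 1 and aged replicate 2 the higher and lower counts were 37 and 30, and 35 and 37. Without young replicate 1 and young replicate 3 they were 43 and 66, and 45 and 66. Of the pathway genes, 2 were called lower without a filter and with DESeq2 (Itpr2 and Slc37a2 in both), and 0 to 1 with 1 library left out, the 1 being Slc37a2 without young replicate 2. None was called higher in any of these. Among the genes named beside the members, the edgeR call of Tff3 was lost with RLE factors, limma-voom, non-robust estimation and the 1 CPM filter (adjusted p 0.0501 to 0.0686), that of Sst without a filter and with the 1 CPM filter (0.0965 and 0.0547) and that of Defa17 without a filter (0.218), while Cela1 was called without a filter (0.00236) and with DESeq2. No paired analysis was possible because the labels give no replicate numbers. Depth limits Trpv6, Trpm6 and Cyp24a1 most, which have the fewest counts of the 8.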
